A study of Mustela putorius furo with 8 samples.

Results

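The genes described here are 10 genes of endoplasmic reticulum (ER) folding and of the cell's response to amino acid shortage: ATF4, DDIT3, NUPR1, ASNS, HSPA5, PDIA3, FKBP11, AGR2, XBP1 and CREB3L2. They were chosen by symbol, and all 10 were found among the 27912 genes counted. They were read in cultures of ferret pancreatic ductal epithelial (PDE) cells, grown from the pancreas of newborn animals aged 1 to 3 days, expanded over passages and then polarized at an air-liquid interface. The WT cultures came from wild-type ferrets and the CF cultures from ferrets of genotype CFTR KO/KO, in which CFTR, the anion channel lost in cystic fibrosis, is knocked out. Single-cell RNA libraries were made with 10x Genomics droplets on day 2, 5, 7 and 9 at the interface, 1 library for each genotype and day and 8 in all. Several donors of each genotype had been pooled in every library and no cell was assigned to a donor, so there is no replicate error, no test between libraries and no p-value. All intervals below are 95% intervals of counting error only. The question asked of these genes was how they differ by genotype and day, and whether the cells that carry the deposited label acinar at WT day 2 are the cells that hold most of them.

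Secreted and membrane proteins fold in the ER, where chaperones bind them and disulfide isomerases and prolyl isomerases help them reach their final shape. When unfolded proteins build up or amino acids run short, kinases that phosphorylate the initiation factor eIF2 lower general translation and favour translation of ATF4, a transcription factor that raises genes for amino acid supply. A further branch splices the mRNA of XBP1 into that of an active transcription factor that raises ER folding genes. Acinar cells of the pancreas make digestive enzymes in bulk and are rich in ER, so several of these genes are high in acinar tissue. Much of this control acts on translation, splicing and protein cleavage, which gene counts do not show.

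The libraries held between 1607 and 6224 retained cells and between 34735952 and 114585136 unique molecular identifiers (UMIs). Of the 1607 cells at CF day 7, 411 held under 3000 UMIs, against between 39 and 224 cells elsewhere. Any pair of libraries shared at most 14 retained barcodes. The targeted gene CFTR was counted in every library, with a range of 6.57 to 29.5 counts per 1e6 UMIs (CPM) over the WT libraries and 2.5 to 11.4 CPM over the CF libraries, so WT and CF stand below for libraries labelled so. The WT cells fell into 41 deposited clusters and the CF cells into 30. SOX2, a transcription factor of foregut epithelium, split the WT clusters: 29 held between 50.6 and 205 CPM and 12 held between 0.806 and 4.87 CPM. No CF library held more than 0.0864 CPM of SOX2. CF was therefore also compared with each of these WT sets alone. Epithelial markers were present, with 12 ductal markers summing to between 11367 and 14056 CPM, while all 8 endocrine and all 5 endothelial markers stayed under 1 CPM. Fibroblast markers summed to at most 5.79 CPM in WT and reached 30.2 CPM in CF, with COL1A1 at 18.9 CPM in CF day 7. The immune marker CD74 reached 99.1 CPM in WT day 9, while the 6 immune markers counted summed to at most 112 CPM in WT. Of these 6, 3 stayed under 1 CPM in every library, among them CSF1R with no UMI.

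ATF4, DDIT3 and NUPR1 were the genes whose 4 WT libraries all lay above their 4 CF libraries. How many of all tested genes are separated in this way was not counted, so it is no result about the 10 genes. ATF4 (RefSeq positions 5825702 to 5827819 on its sequence in ASM1176430v1.1, whose table names no chromosome for any gene here) is the central transcription factor of the amino acid response. It held 193, 193, 203 and 183 CPM in WT and 139, 154, 172 and 151 CPM in CF at day 2, 5, 7 and 9. The lowest WT library lay above the highest CF library, and the largest gap, at day 2, was 1.38-fold (1.35 to 1.41). This held over all cells and differed by label. At day 5, 7 and 9 centroacinar-labelled cells held more in CF, at 176 against 167, 212 against 178 and 165 against 158 CPM. Ductal-labelled cells held less in CF, at 148 against 222, 116 against 243 and 96.1 against 231. Centroacinar progenitor-labelled cells did too, at 104 against 123, 101 against 146 and 107 against 131. DDIT3 (2807067 to 2811045), also called CHOP, is a transcription factor that is induced downstream of ATF4 and tied to cell death under ER stress. It held 76.6, 50.4, 68.6 and 43.1 CPM in WT and 15.7, 17.6, 15.9 and 19.5 CPM in CF. WT exceeded CF 4.88-fold (4.63 to 5.15) at day 2, 2.85-fold (2.68 to 3.04) at day 5, 4.31-fold (3.95 to 4.71) at day 7 and 2.21-fold (2.06 to 2.37) at day 9. The CF libraries lay close together and the WT libraries spread over a wider range that did not reach them. The mitochondrial share was 9.17%, 6.63%, 10.7% and 10.3% in the WT libraries and 7.04%, 6.76%, 5.71% and 5.65% in the CF libraries, and its part in the DDIT3 and NUPR1 values was not tested. MARS1, a tRNA synthetase gene, shares 60 positions with DDIT3. It is not given in the sources used here whether counting used the strand, so reads there may belong to either gene.

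NUPR1 and ASNS are raised by ATF4 in other systems. NUPR1 (1419469 to 1420912) is a small chromatin-bound protein of the stress response, first known from inflamed pancreas. It held 121, 56.9, 78.3 and 55.0 CPM in WT and 31.4, 25.5, 22.3 and 16.9 CPM in CF. Every WT library lay above every CF library, by 3.86-fold (3.71 to 4.01), 2.23-fold (2.12 to 2.36), 3.51-fold (3.26 to 3.79) and 3.25-fold (3.02 to 3.50) in day order. ASNS (40290483 to 40306730) makes asparagine from aspartate and glutamine. It held 45.6, 22.1, 20.5 and 15.7 CPM in WT and 33.4, 18.8, 16.4 and 12.8 CPM in CF. CF was thus lower at each day, by at most 1.36-fold (1.31 to 1.42), while the levels of the genotypes overlapped across days. Part of ASNS shares positions with a non-coding gene, LOC106007340.

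**Figure D1:**
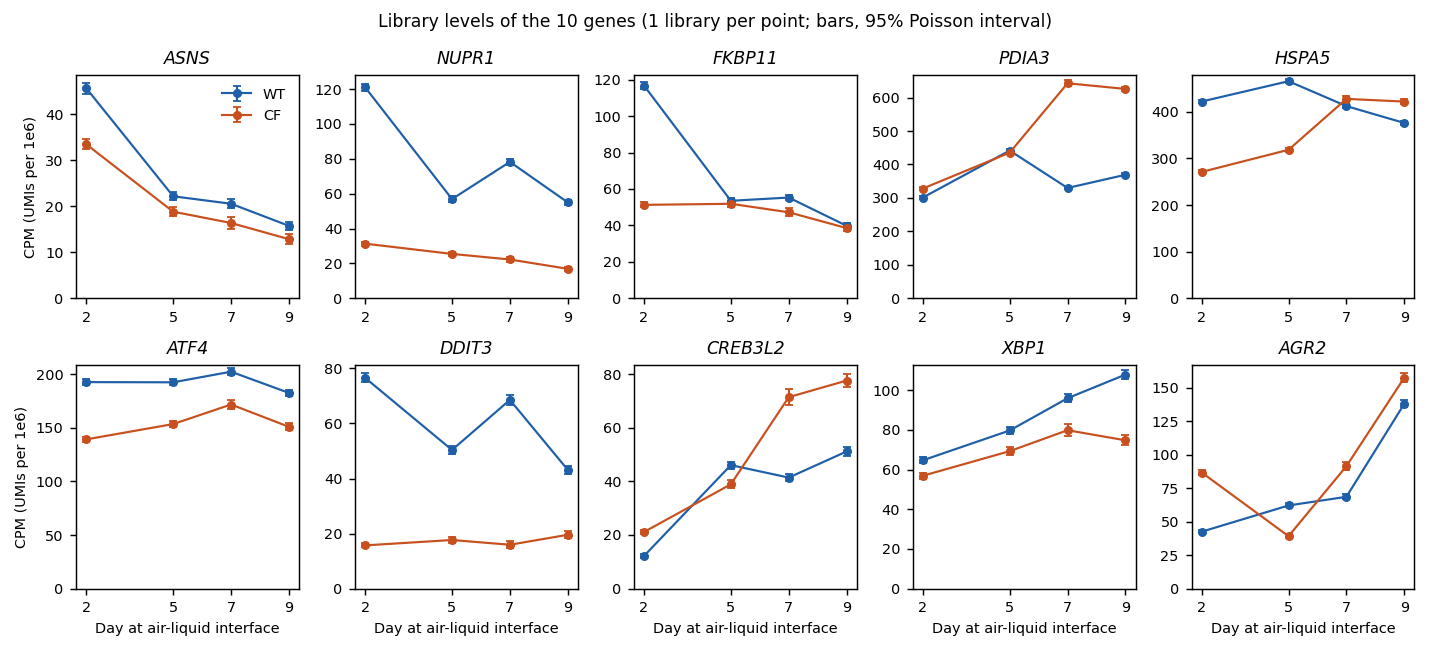
Level of each of the 10 genes in CPM (y axis, from 0, a scale of its own for each gene) against day at the air-liquid interface (x axis), for WT (blue) and CF (orange). Each point is 1 library and each bar its exact Poisson interval. DDIT3, NUPR1 and ATF4 are the genes whose WT points all lie above their CF points, a separation not counted over all genes.

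Among the folding genes, HSPA5 and PDIA3 stood higher in CF at day 7 and 9 than at day 2 and 5. HSPA5 (7211278 to 7216006), also called BiP, is the main Hsp70 chaperone of the ER and holds the stress sensors inactive. It held 422, 465, 412 and 376 CPM in WT and 271, 318, 428 and 422 CPM in CF. CF was lower at day 2 by 1.56-fold (1.53 to 1.58) and higher at day 9 by 1.12-fold (1.1 to 1.14). With equal weight for each deposited class of at least 50 cells in both libraries, the day 9 difference turned to -0.36 on the log2 scale. PDIA3 (10368059 to 10393065) is the disulfide isomerase that works on glycoproteins held by calnexin and calreticulin. It held 301, 442, 330 and 369 CPM in WT and 328, 435, 643 and 626 CPM in CF. The genotypes were near each other at day 2 and 5, and CF was above WT by 1.95-fold (1.91 to 1.98) at day 7 and 1.69-fold (1.67 to 1.72) at day 9. This differed by label. Centroacinar-labelled cells held 813 CPM in CF against 268 in WT at day 7 and 706 against 281 at day 9. Centroacinar progenitor-labelled cells held 387 against 248 and 411 against 263. In ductal-labelled cells CF was lower, at 350 against 395 and 276 against 510. With equal weight for each class the day 9 difference was 0.40 on the log2 scale. The part of the fibroblast markers counted in CF day 7 in these values was not tested.

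The other folding enzymes, FKBP11 and AGR2, differed most at day 2. FKBP11 (6482165 to 6486171) is a prolyl isomerase of secretory cells. It held 117, 53.5, 55.3 and 39.8 CPM in WT and 51.3, 51.9, 47.2 and 38.6 CPM in CF. WT exceeded CF 2.28-fold (2.20 to 2.35) at day 2 and 1.17-fold (1.11 to 1.24) at day 7, while the intervals of the ratio held 1 at day 5 and 9. AGR2 (49046672 to 49058164) is a disulfide isomerase needed for mucin folding in gut epithelium. It held 42.4, 62.0, 68.5 and 138 CPM in WT and 86.6, 39.1, 91.3 and 157 CPM in CF. CF was above WT at day 2 by 2.04-fold (1.97 to 2.11) and below it at day 5, where WT was 1.59-fold higher (1.52 to 1.66). At day 9 CF was above WT by 0.19 on the log2 scale, which turned to -0.69 with equal weight for each class.

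XBP1 and CREB3L2 are transcription factors of secretory capacity, the latter released from the ER membrane by cleavage. XBP1 (3324746 to 3330791) held 64.7, 79.7, 96.0 and 108 CPM in WT and 56.9, 69.3, 79.9 and 74.8 CPM in CF. CF was lower at each day over all cells, by 1.44-fold (1.39 to 1.5) at day 9. In centroacinar-labelled cells, CF against WT stood at 75.5 against 61.2 CPM at day 5. At day 7 and 9 these cells stood at 87.5 against 84.1 and 77.3 against 113. Centroacinar progenitor-labelled cells held 55.9 against 123 CPM at day 5, and ductal-labelled cells 69.3 against 72.4. CREB3L2 (91199541 to 91312235) held 12.2, 46.1, 41.4 and 51.2 CPM in WT and 21.1, 38.9, 71.5 and 77.7 CPM in CF. Its day 2 libraries were the lowest of each genotype, and CF was above WT at day 2, 7 and 9, by 1.74-fold (1.62 to 1.86), 1.72-fold (1.64 to 1.82) and 1.52-fold (1.45 to 1.58). For the 10 genes, between 1 and 4 of the 7 steps between neighbouring libraries in order of level had overlapping Poisson intervals, for example DDIT3 in CF at day 2 and day 7.

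A gene was called apart between libraries when it differed at least 2-fold on the log2(CPM + 1) scale and the interval of the ratio left out 1, and the same was counted over the 7712 genes with a mean of at least 10 CPM. At day 2, 1 of the 10 genes, AGR2, was called higher in CF, against 4.23% of all tested genes, and 3 were called lower, NUPR1, FKBP11 and DDIT3, against 2.74%. The AGR2 call was lost under 5 of the 7 other settings with all WT cells and against the SOX2-low WT cells. At day 5 none of the 10 was called higher and 2, NUPR1 and DDIT3, were called lower, with 1.84% and 3.1% of all genes. At day 7 the counts were 0 and 2, the same genes, with 3.89% and 2.35% of all genes. At day 9 they were again 0 and 2, NUPR1 and DDIT3, with 2.71% and 2.83% of all genes, and the DDIT3 call came to -0.97 with a pseudocount of 5 CPM. The median log2 difference of the 10 genes, CF minus WT, was -0.45, -0.28, -0.23 and -0.16 in day order, and that of all tested genes was 0.02, -0.04, 0.13 and 0.09. The median of the 10 genes lay below that of all genes at each of the 4 days. Of the 4 proliferation markers tested, 3, 2, 2 and 0 were called lower in CF at day 2, 5, 7 and 9. Of 11 centroacinar progenitor markers tested, 1, 1, 3 and 9 were called lower and 2, 2, 1 and 0 higher. Of 5 markers of mucus secretory cells, 0, 0, 1 and 3 were called lower and 2, 2, 2 and 0 higher. The part of these markers in the values of the 10 genes was not tested.

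The NUPR1 difference depended on the SOX2 set of WT cells compared, and the DDIT3 difference much less so. NUPR1 held between 21.8 and 55.9 CPM in the SOX2-low WT cells and between 69.5 and 131 CPM in the other WT cells of the 4 days. Against the SOX2-low cells alone, CF minus WT for NUPR1 was -0.81, -0.42, -0.67 and -0.35 on the log2 scale, and against the others it was -2.02, -1.54, -2.12 and -1.98. NUPR1 thus no longer passed 2-fold at any day with the SOX2-low cells. DDIT3 was lower in CF with either set: -2.36, -1.65, -2.47 and -1.17 against the SOX2-low cells and -2.19, -1.28, -1.75 and -1.07 against the others. Its difference did vary by label. At day 5, 7 and 9 centroacinar-labelled cells held 21.5 CPM in CF against 39.3 in WT, 19.8 against 58.3 and 22.9 against 30.8. The day 5 and day 9 values are short of 2-fold. Ductal-labelled cells held 12.9 against 63.0, 7.70 against 93.3 and 7.42 against 62.0 CPM. FKBP11 at day 2 turned with the set: the SOX2-low WT cells held 30.3 CPM, the other WT cells 129 CPM and CF 51.3 CPM, so CF minus WT went from -1.32 against the others to 0.74 against the SOX2-low cells. At day 5, 7 and 9 FKBP11 was likewise below 0 against the other WT cells and at 0.19, 0.13 and 0.54 against the SOX2-low cells. The ASNS difference at day 2 came to -0.02 against the SOX2-low cells, and at day 5 it was 0.26 against the others. CREB3L2 and AGR2 turned at day 5, from -0.79 to 0.90 and from -1.16 to 0.34, and AGR2 at day 9, from 0.46 to -0.28. AGR2 at day 2 came to 0.70, short of 2-fold, against the SOX2-low cells. HSPA5 turned at day 7, from 0.25 to -0.26. XBP1 came to 0.005 at day 5 and -0.014 at day 7 against the SOX2-low cells, with -0.31 and -0.34 at day 2 and 9. Against the SOX2-low cells, none of the 10 genes was called higher in CF at day 2, 5 and 9, where 2.15%, 4.1% and 2.09% of all genes were, and CREB3L2 and AGR2 were called higher at day 7, by 1.64 and 1.03, with 5.65% of all genes. DDIT3 was the 1 gene called lower at each day, with 1.24%, 1.72%, 1.72% and 1.27% of all genes in day order.

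**Figure D2:**
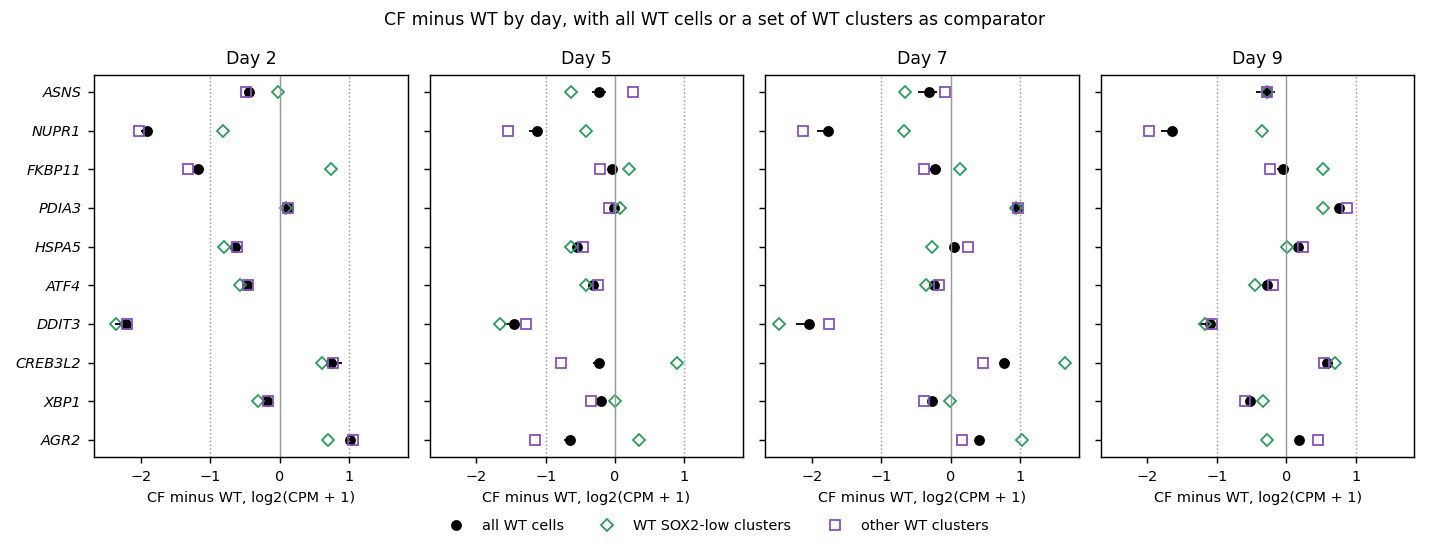
CF minus WT on the log2(CPM + 1) scale (x axis) for each gene (y axis) at each day, with all WT cells (black, bar: exact interval of the ratio of CPM), the SOX2-low WT clusters (green diamonds) or the other WT clusters (violet squares) as comparator. Dotted lines mark 2-fold; DDIT3 lies left of -1 with every comparator and day, while the NUPR1 diamonds lie between -0.81 and -0.35.

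Time at the interface was compared within each genotype. From day 2 to day 9 in WT, 2 of the 10 genes were called higher, CREB3L2 by 4.21-fold (3.96 to 4.47) and AGR2 by 3.25-fold (3.14 to 3.36), against 8.86% of all tested genes. Another 3 were called lower, against 4.72%: FKBP11 by 2.93-fold (2.82 to 3.05), ASNS by 2.90-fold (2.73 to 3.08) and NUPR1 by 2.20-fold (2.13 to 2.27). These 3 are among the markers given for the acinar label, and nearly all cells with that label are of WT day 2. They had been chosen on these libraries, so their decline in WT and its count are no independent evidence. With equal weight for each class NUPR1 came to -0.72 and was no longer called, and under TMM scaling DDIT3 came to -1.01 and was called lower too. In CF, 1 gene was called higher, CREB3L2 by 3.68-fold (3.49 to 3.88), against 5.55%, and 1 was called lower, ASNS by 2.60-fold (2.39 to 2.84), against 2.52%. Medians of the 10 genes were -0.12 in WT and 0.34 in CF, and those of all genes 0.11 and 0.14. With equal weight for each class the medians of the 10 genes turned to 0.16 in WT and -0.18 in CF. That setting averaged over the labels with at least 50 cells at both days, 2 in WT and 3 in CF, and left out the other cells. Among those left out were the 2361 centroacinar cells of WT day 9 and the acinar-labelled cells of WT day 2. ASNS and CREB3L2 were thus the members called in both genotypes, in opposite directions to each other. Most of the decline of ASNS fell between day 2 and day 5, at -1.01 in WT and -0.80 in CF on the log2 scale. AGR2 went through a low at CF day 5, with -1.13 from day 2 and 1.2 to day 7, while the same steps in WT were 0.54 and 0.14. Markers of other kinds moved over the same time. All 4 tested proliferation markers were called lower in WT and 3 of 4 in CF, with medians of -3.63 and -2.39. Of 5 tested markers of mucus secretory cells, 5 were called higher in WT and 4 in CF, with medians of 7.08 and 4.81. Their part in the ASNS, FKBP11, NUPR1 and AGR2 changes was not tested.

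The cells that carry the label acinar were 1 cluster, WT cluster 26. It held 339 of the 6224 cells of WT day 2, or 5.45%, and 4 cells at other days, and no CF cell carried the label. These cells did not stand out for most of the 10 genes. On the log2 scale the acinar-labelled cells minus the 5885 other cells of WT day 2 gave 0.61 for FKBP11, at 173 against 113 CPM, and 0.50 for ASNS, at 63.0 against 44.4 CPM. NUPR1 gave 0.19, at 137 against 120 CPM, PDIA3 0.18 and HSPA5 0.06. ATF4, DDIT3 and XBP1 lay between -0.02 and 0, and the intervals of their ratios all held 1. CREB3L2 and AGR2 were lower in the acinar-labelled cells, by -0.51 and -0.68. None of the 10 genes was called in either direction, where 0.713% of all tested genes were called higher and 2.15% lower. The median of the 10 was 0.03 and that of all genes -0.03. Most of the other cells were ductal, and the ductal-labelled cells alone gave no call either. Against the centroacinar progenitor-labelled cells alone, 3 of the 10 genes were called higher in the acinar-labelled cells, DDIT3 by 1.54, ASNS by 1.08 and FKBP11 by 1.03, with 10.3% of all genes, and 2 were called lower, AGR2 by -1.75 and CREB3L2 by -1.21, with 7.53% of all genes. The labels were given to clusters made from the same counts, so these values describe the label and test nothing.

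The acinar-labelled cluster 26 was set against the 12 other clusters with at least 50 cells at WT day 2, of which 9 carried the label ductal. FKBP11 was higher in cluster 26 than in each of the 12, with no interval of a ratio that held 1, and its 173 CPM stood above a ductal range of 21.5 to 151 CPM. ASNS was higher in ductal cluster 37, at 91.5 CPM, and the intervals against 4 more clusters held 1, among them proliferating acinar cluster 25 at 63.6 CPM. NUPR1 was higher in 3 clusters, reached 195 CPM in ductal cluster 4, and could not be set apart from cluster 26 in 2 more. For PDIA3 no cluster was set apart above cluster 26 and 5 intervals held 1. HSPA5, DDIT3 and CREB3L2 were each higher in 4 clusters, ATF4 and AGR2 in 6 and XBP1 in 2. Ductal cluster 35 held 82 shallow cells with no CREB3L2 UMI, where 3 UMIs would make 18.8 CPM. Its CREB3L2 ratio to cluster 26 was 0 (0 to 2.82). ASNS, NUPR1 and FKBP11 are among the markers given for the acinar label. They summed to 373 CPM in cluster 26, to 406 CPM in ductal cluster 37 and to a median of 285 CPM over the ductal clusters. The ratio of cluster 37 to cluster 26 was 1.09 (0.992 to 1.19), so these clusters could not be set apart, and the sum was lower in the other 11.

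Markers of other kinds moved with the label more than the 10 genes did. All 11 tested centroacinar progenitor markers were lower in the acinar-labelled cells, 4 of them called: MUC1, MUC4, MUC13 and MUC16. All 5 tested centroacinar markers were lower too, with PROM1 called at -2.07 and S100A4 at -2.47. None of 10 tested ductal markers was called. The part of these markers in the lower AGR2 and CREB3L2 values was not tested. PCNA, MCM2, MCM5, TYMS and RRM2, genes of DNA replication, summed to 1034 CPM in cluster 26, to 1066 CPM in cluster 25 and to a median of 86.1 CPM over the ductal clusters, the highest of which held 437 CPM. The other proliferation markers, mostly of later phases of the cell cycle, were lower or differed less. CCNB1 was at 7.44 against 23.8 CPM in the other cells, MKI67 at 18.7 against 29.2, TOP2A at 46.4 against 48.6 and CCNA2 at 20.5 against 13.2. Among genes with a mean of at least 10 CPM over the libraries, those highest in the acinar-labelled cells over the others were MCM4, at 162 against 31.2 CPM, MCM5, RRM2, MCM3 and ORC6, all of DNA replication. Of 31 digestive enzymes and acinar regulators listed, 17 were among the counted genes, 14 of these had no UMI in the acinar-labelled cells and 16 were under 1 CPM. The remaining gene was CLPS, the colipase of fat digestion, at 14.2 CPM against 22.6 CPM in the other cells. Low levels were not particular to the label, since 12 of the 17 were under 1 CPM in every library. The 17 summed to 15.6 CPM in the acinar-labelled cells and 31.7 CPM in the others. The count of genes with no UMI rests on 7126596 UMIs, against 107458540 in the other cells. NR5A2, a nuclear receptor of acinar identity, was at 0.561 against 8.11 CPM. All 7 markers given for the acinar label, ASNS, NUPR1 and FKBP11 among them, were higher in the acinar-labelled cells, none of them 2-fold, with a median of 0.50 against -0.03 over all genes. Those markers had been chosen on these libraries, so their direction is no independent evidence. The authors state that earlier single-cell studies had found them as acinar markers too. They first named clusters by correlation to published single-cell data of mouse and human pancreas. The part of replication state in the FKBP11 and ASNS values was not tested, and proliferating acinar clusters 25 and 28 held 152 and 124 CPM of FKBP11 and 63.6 and 62.4 CPM of ASNS. The acinar-labelled cells held a median of 19218 UMIs and the others 16061.

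**Figure D3:**
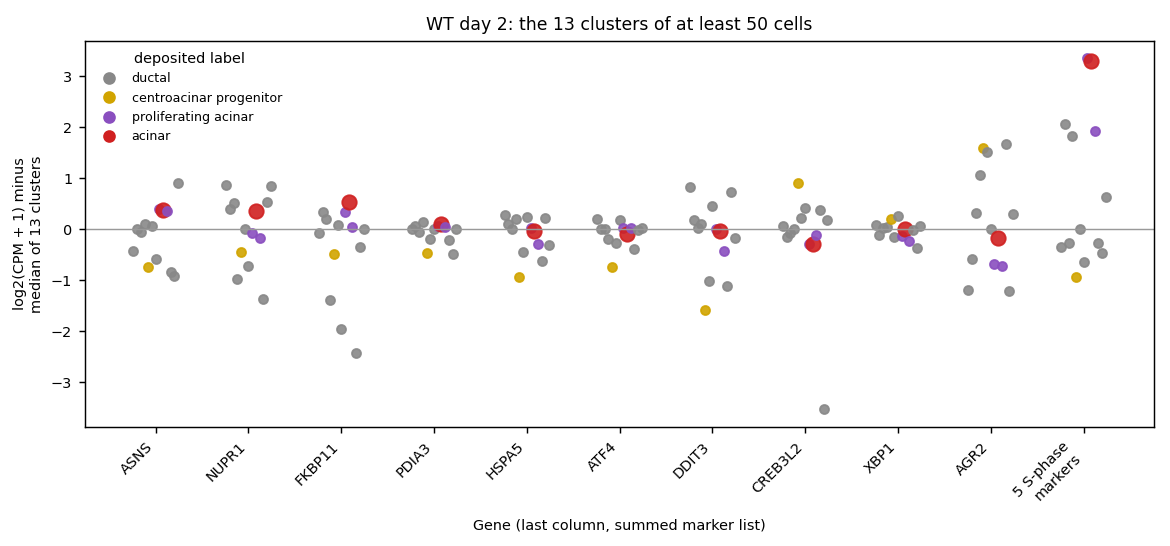
Level of each gene in the 13 WT day 2 clusters of at least 50 cells, as log2(CPM + 1) minus the median of these clusters (y axis), with the sum of the 5 replication markers as the last column. Each point is 1 cluster coloured by its deposited label; the acinar-labelled cluster (large red) lies inside the spread of the ductal-labelled clusters for 8 of the 10 genes, above it for FKBP11 and the replication markers, and for CREB3L2 above cluster 35 alone, which had no UMI.

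AGR2 varied 74.9-fold between the lowest and the highest WT cluster of at least 50 cells and 35.5-fold in CF, against 4.03-fold over the 8 libraries. The lowest WT cluster for AGR2, ductal cluster 20 at 3.84 CPM, was shallow, with a median of 3398 UMIs over 530 cells. NUPR1 varied 24-fold over the WT clusters and 5.58-fold over the CF clusters, against 7.14-fold over the libraries. WT clusters of at least 50 cells numbered 39 and CF clusters 29, and clusters of a library are not replicates. DDIT3 ranged from 22.2 to 180 CPM over the WT clusters with a median of 57.0, and from 5.94 to 40.3 CPM over the CF clusters with a median of 17.4. All 29 CF clusters lay below the WT median and 19 lay below the lowest WT cluster. NUPR1 ranged from 18.2 to 437 CPM in WT and from 10.4 to 58.0 CPM in CF, and again all 29 CF clusters lay below the WT median of 78.9 CPM, with 7 below the lowest WT cluster. The highest WT cluster for both genes, ductal cluster 35, held 114 cells with a median of 1898 UMIs, so it was shallow. The next one for both was ductal cluster 4, with 1030 cells, nearly all of WT day 2, at 140 CPM of DDIT3 and 195 CPM of NUPR1.

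The folding genes peaked elsewhere. CF cluster 11, labelled centroacinar, held 1150 CPM of PDIA3 (1129 to 1171), the highest of any cluster, with 828 CPM of HSPA5, 137 CPM of CREB3L2, 262 CPM of AGR2 and 104 CPM of XBP1. It held 401 cells, of which 266 were from day 9. In WT, ductal cluster 2, mostly of day 5, had the highest PDIA3 and HSPA5 at 746 and 742 CPM and the second highest CREB3L2 at 125 CPM. AGR2 spread most, from 3.84 to 288 CPM in WT and from 10.2 to 361 CPM in CF, with its highest values in WT cluster 18, a centroacinar progenitor cluster, and CF cluster 7, a centroacinar cluster. WT cluster 18 was also the highest for XBP1, at 225 CPM. CF cluster 7 was the lowest of the CF clusters for ATF4, at 73.6 CPM. FKBP11 was highest in the acinar-labelled cluster 26 over all 41 WT clusters too, at 172 CPM (162 to 182), and next in cluster 25 at 151 CPM. CREB3L2 was low in the same cells, at 8.67 CPM in cluster 26.

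**Figure D4:**
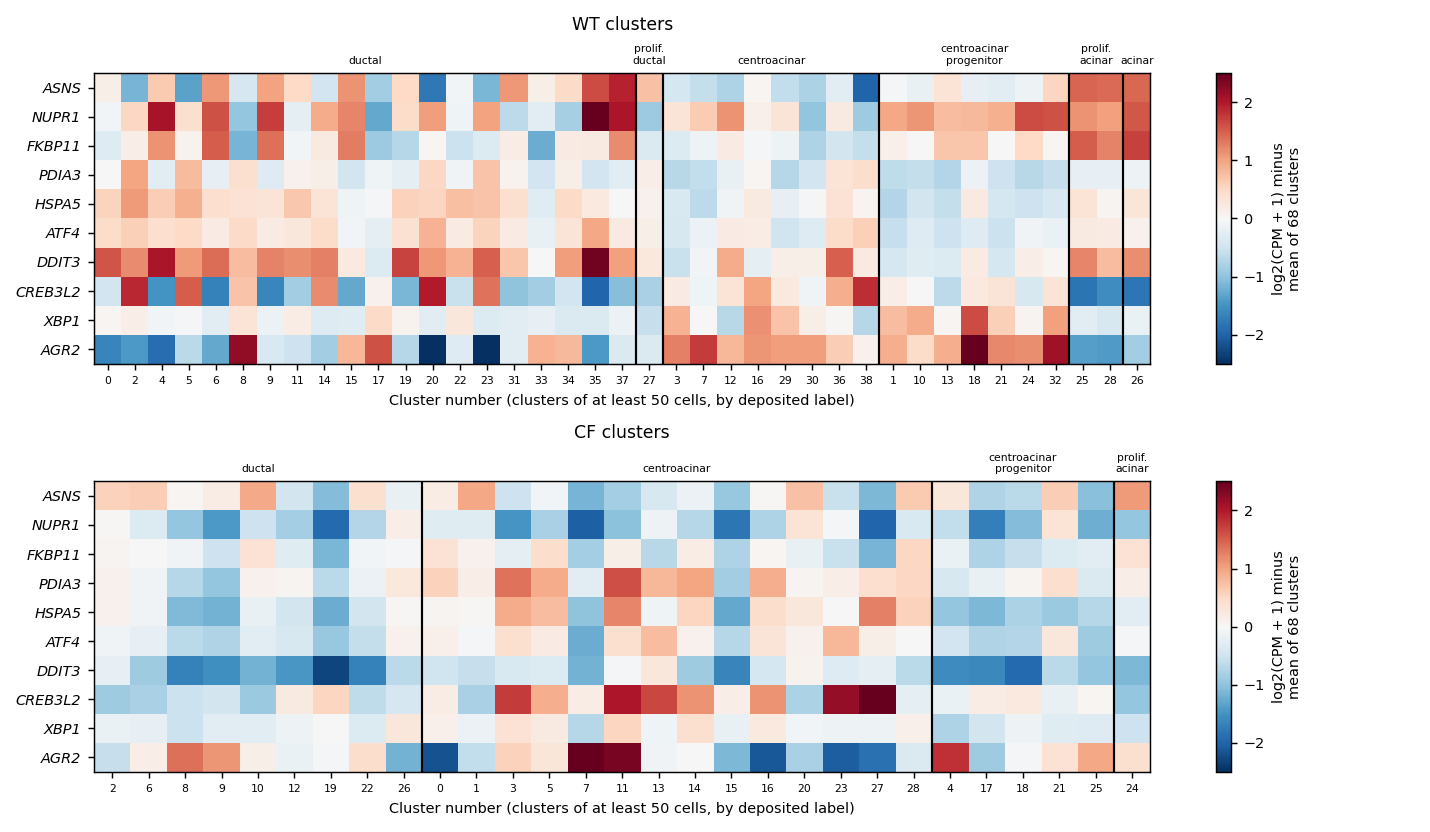
Level of the 10 genes in the 39 WT (top) and 29 CF (bottom) clusters of at least 50 cells, as log2(CPM + 1) minus the gene's mean over all 68 clusters (colour, red higher, blue lower), with clusters in columns ordered by deposited label. The DDIT3 and NUPR1 rows are mostly red in WT and blue in CF, and the PDIA3 row is reddest in CF clusters 11 and 3 and, within WT, in clusters 2 and 5.

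Likeness of the genes was taken as Pearson's r of log2(CPM + 1) over these clusters, within each genotype. The points share libraries and depth, so r is a description. Among PDIA3, HSPA5, ATF4 and DDIT3, r ran from 0.44 to 0.82 in WT and from 0.71 to 0.84 in CF, with PDIA3 and DDIT3 at 0.44 as the weakest. Among ASNS, NUPR1 and FKBP11, r ran from 0.43 to 0.67 in WT and from 0.55 to 0.71 in CF. Of the 45 pairs of the 10 genes, 8 had r above 0.5 in both genotypes and 16 had opposite signs. The strongest inverse pair was ASNS with CREB3L2, at -0.89 in WT and -0.66 in CF. XBP1 turned most: with PDIA3 it gave -0.31 in WT and 0.73 in CF, with ATF4 -0.57 and 0.58, and with AGR2 0.56 and -0.33. AGR2 ran against ATF4, at -0.68 in WT and -0.42 in CF. Over the 36 WT and 25 CF clusters with a median of at least 5000 UMIs the inverse pair gave -0.85 and -0.64, and XBP1 with ATF4 gave -0.52 and 0.73. In those deeper CF clusters FKBP11 gave 0.75 with ATF4 and 0.72 with HSPA5, as high as its 0.70 with ASNS and with NUPR1, while in WT it gave 0.06 and 0.04 with ATF4 and HSPA5.

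**Figure D5:**
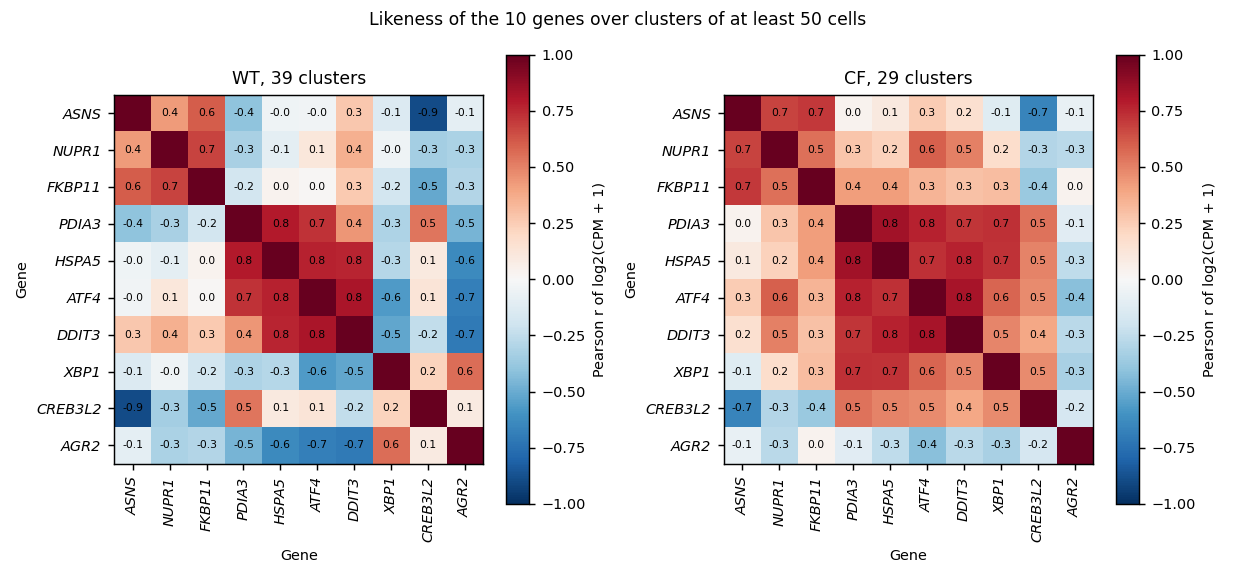
Pearson's r between the 10 genes (both axes) over 39 WT clusters (left) and 29 CF clusters (right) of at least 50 cells, on the log2(CPM + 1) scale, with r printed in each cell. A block of PDIA3, HSPA5, ATF4 and DDIT3 is red in both, and the XBP1 row changes from mostly blue in WT to mostly red in CF.

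The genes outside the 10 whose cluster pattern was most like each of them are given with the mean of the WT and CF values of r. PDIA3 was closest to PDIA6, a further disulfide isomerase, at 0.92, and HSPA5 had HSP90B1, the ER member of the Hsp90 family, among its 3 closest at 0.85. NUPR1 was closest to CEBPB, a transcription factor of stress and inflammation, at 0.83. ASNS was closest to TKT, the transketolase of the pentose phosphate path, at 0.88, and FKBP11 to FBL, a nucleolar methyltransferase, at 0.76, with NOP16 and SRM, which makes spermidine, next. ATF4 was closest to ZNF219, at 0.94. DDIT3 was closest to REEP6, an ER membrane protein, at 0.83. CREB3L2 was closest to CRIM1, at 0.96, XBP1 to CCN1, a secreted matrix protein, at 0.69, and AGR2 to KRT8, a keratin of simple epithelium, at 0.72.

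The other genes of these pathways were counted under the same rule. The 5 lists of amino acid response, tRNA synthetase and ER genes held 106 genes with a mean of at least 10 CPM, and 19 of them, or 17.9%, were called in at least 1 of the 7 comparisons, against 21.5% of all tested genes. With the 7 markers given for the acinar label, ASNS, NUPR1 and FKBP11 among them, and the tested digestive and acinar genes, the lists held 115 genes, and 28 were called. At 1.5-fold 56 of the 115 were called, against 53.1% of all tested genes. Of 17 amino acid response genes tested, CF against WT called 1 higher and 1 lower at day 2, 1 and 2 at day 5, 0 and 1 at day 7 and 1 and 2 at day 9, with list medians of -0.02, -0.07, -0.02 and 0.06. Over all tested genes the medians were 0.02, -0.04, 0.13 and 0.09, and the shares called were the 4.23% and 2.74%, 1.84% and 3.1%, 3.89% and 2.35%, and 2.71% and 2.83% given above. The counts of 1 or 2 genes of 17 are small and were not tested against these shares. PYCR1, an enzyme of proline synthesis, was lower in CF at day 2 and 5, by -1.53 and -1.60, and SLC7A11, the cystine transporter, at day 7 and 9, by -1.51 and -1.83. None of the 20 cytosolic tRNA synthetases was called in any comparison. Of 29 ER chaperones and disulfide enzymes tested, FKBP9 at day 7 was the call between genotypes, at 1.16, and the list median went from 0.04 and -0.13 at day 2 and 5 to 0.24 and 0.32 at day 7 and 9, where 24 and 23 of the 29 were above 0. The medians of all genes at those days were 0.13 and 0.09. Of 27 genes of ER translocation and degradation, HERPUD1, a degradation factor raised by ER stress, was the call between genotypes, at -1.31 at day 2, with 56.5 CPM in CF and 141 in WT. Of 13 stress sensors and partners none was called between genotypes or over time.

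Over time the amino acid response list had medians of -0.39 in WT and -0.31 in CF from day 2 to day 9, with 0.11 and 0.14 over all genes. In WT, 2 of its genes were called higher and 3 lower, with PHGDH, the entry enzyme of serine synthesis, at -2.81, and in CF 1 was higher and 5 lower. All tested genes were called higher in 8.86% and lower in 4.72% in WT, and in 5.55% and 2.52% in CF. Chaperones and disulfide enzymes had medians of 0.20 and 0.54, with 3 called higher in WT, 4 in CF and none lower, ERO1B, an ER oxidase, among them in both at 1.90 and 1.03. Of the ER translocation and degradation genes, SEC62 and SELENOS were called higher in WT, at 1.04 and 1.16, and KDELR3 in CF, at 1.27, with none lower. Of the 7 markers given for the acinar label, 6 were called lower in WT from day 2 to day 9 and 2 in CF. Nearly all acinar-labelled cells are of WT day 2 and the markers were chosen on these libraries, so the WT count is no independent evidence. PRDX2, a peroxiredoxin on that list, was called lower in CF at all 4 days, by -2.66, -2.20, -1.91 and -1.55, as was NUPR1. NR5A2 was called higher in CF at all 4 days, by 2.7, 1.23, 1.1 and 1.2.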

How the data were processed

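Single-cell RNA of 8 libraries was measured with 10x Genomics droplets. The authors had used Cell Ranger 5.0.1 and the genome ASM1176430v1.1 to obtain UMI counts per gene and barcode, and the deposited matrices held whole UMI counts. The authors had kept cells with at least 200 genes and under 20% mitochondrial reads, removed doublets with DoubletFinder, and clustered and labelled WT and CF cells separately. Their cell table gave library, cluster, label, UMI count and the percent of mitochondrial UMIs, which the authors had computed, and 32945 cells of that table were used.

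UMIs were summed per library, label or cluster and divided by the sum over all genes to give CPM. Differences are log2 ratios of CPM plus a pseudocount of 1 CPM, which understates low genes. Intervals are exact Poisson for levels and exact conditional binomial for ratios. UMI totals of 34735952 to 114585136 per library make counting error small, and variation between donors, cultures and libraries is not in it. A gene was tested at a mean of at least 10 CPM over the 8 libraries (all 10 genes passed) and called at 2-fold with an interval of the ratio that left out 1. The rule was run on simulated counts that held counting error alone, so this run does not cover variation between donors, cultures or libraries. With 1 library per group no model across genes was fitted. TMM factors came from edgeR 4.0.16 and size factors from DESeq2 1.42.0, as scaling alternatives alone, in R 4.3.3. Other steps used Python 3.11.15, scipy 1.17.1 and pandas 2.3.3.

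The 10 genes, the lists and the SOX2 split were chosen with earlier results of these data known. Named list genes were, from each list, up to 4 with the largest difference among those called in the acinar comparison and up to 3 called the same way at all 4 days. Other list genes in the text were chosen after their values were seen. The 3 closest genes had the highest mean of both r. Positions and names come from a RefSeq gene table of the same assembly, which matched all 10 symbols.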

Additional observations from a re-analysis of the deposited data

Results flagged for a closer look

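Several genes went opposite ways in the genotypes or at different days, with counting intervals that left out no change on both sides. None of these differences was tested, since each rests on 1 library a side. From day 2 to day 9, on the log2(CPM + 1) scale, HSPA5 gave 0.64 in CF and -0.17 in WT, DDIT3 gave 0.30 in CF and -0.81 in WT, and ATF4 gave 0.12 in CF and -0.08 in WT. With equal weight for each class none of these 3 went that way any more: HSPA5 gave 0.0065 in CF and 0.18 in WT, DDIT3 gave -0.36 and -0.30, and ATF4 gave -0.23 and 0.14. CF minus WT for HSPA5 was -0.64 at day 2 and 0.17 at day 9, where equal weight for each class gave -0.36. CF minus WT for CREB3L2 was 0.77 at day 7 and -0.24 at day 5, and for AGR2 it was 1.01 at day 2 and -0.65 at day 5. Against the SOX2-low WT cells alone the day 5 values were 0.90 for CREB3L2 and 0.34 for AGR2, so these days no longer went opposite ways.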

How the results depend on the processing

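Counts of called genes stayed within 1.5 times in 51 of 56 alternatives. With WT cells of SOX2-low clusters alone, an alternative chosen after seeing the data, the genes called between CF and WT fell from 4 to 1 at day 2 and from 2 to 1 at day 5 and 9, DDIT3 each time, and went from 2 to 3 at day 7, with DDIT3, CREB3L2 and AGR2, and FKBP11 at day 2 reversed to 0.74. A pseudocount of 5 CPM left 1 at day 9, NUPR1, since DDIT3 came to -0.97. A fold of 1.5 raised the called list genes from 28 to 56 of 115, with 21.5% and 53.1% of all tested genes called. AGR2 at day 2 was no longer called under 5 of the 7 other settings with all WT cells, with values down to 0.87. The comparison of acinar-labelled with all other cells called 0 of the 10 genes higher under all 7 alternatives that could be run, while centroacinar progenitor-labelled cells alone as comparator gave 3 higher and 2 lower. A fold of 1.5 was not among these 7. FKBP11, 1.53-fold (1.44 to 1.63) higher, and AGR2, 1.63-fold (1.41 to 1.9) lower, lie beyond that fold, so the count of 0 depends on the 2-fold rule. The share of all tested genes beyond 1.5-fold in this comparison was not counted, so neither count is a result about the 10 genes. TMM moved the median of all genes by up to -0.26, in CF from day 2 to day 9, where NUPR1 was then called too, as was DDIT3 in WT, at -1.01. With equal weight for each class the DDIT3 change from day 2 to day 9 in CF turned to -0.36 and that of AGR2 to -0.14. The HSPA5 and AGR2 differences at day 9 turned to -0.36 and -0.69, and the cause was not tested. This setting used labels with at least 50 cells in both libraries, 2 in WT over time and 3 elsewhere. Cells of other labels were left out, among them the 1131 centroacinar cells of CF day 2 in the day 2 comparison of genotypes. Of 530 values of single genes, 249 left the counting interval of the main value, which is narrow. Leaving out each acinar-labelled cluster in turn was not possible with 1 such cluster, and no other day held 50 acinar-labelled cells. No paired analysis was possible because the groups share no more than 1 replicate number, and the days are time points and not replicates. Each library level rests on at least 553 UMIs, while levels in small or shallow clusters rest on few, and a lone library per group limits every comparison.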
